A study of Mus musculus with 45 samples.

Results

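The 10 genes described here are joint interzone and articular genes: the growth factor genes Gdf5 and Gdf6, the WNT ligand genes Wnt4 and Wnt9a, the transcription factor genes Erg, Osr1, Osr2, Barx1 and Trps1, and Prg4, which encodes the joint lubricant lubricin. They were taken by gene symbol from 35272 genes measured in cultured mouse forelimb buds, and all 10 were present and passed the low-count filter in every comparison. Forelimbs of gestation day 13 embryos of the CD1 strain were cultured in bottles with 1 or 5 µM bisphenol AF (BPAF), a fluorinated analog of bisphenol A, or with the solvent dimethyl sulfoxide (DMSO) alone as control. Culture lasted 3, 24 or 48 h, and 5 poly-A RNA libraries were sequenced for each dose and time, which gave 9 groups and 45 libraries. CD1 is an outbred strain, limbs of male and female embryos shared bottles, and every group, the controls included, was cultured without the rest of the embryo. The labels do not say whether replicates came from separate bottles or days, and the spread that p-values measure here may be partly technical.

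Some labels disagree with each other. The treatment text spells out bisphenol A beside the abbreviation BPAF, and BPAF follows the titles. A treatment field of 1 µM 3 h replicate 5 reads 10 uM BPA, while its title places it at 1 µM BPAF, where it was kept. Titles and library codes number 1 µM 48 h replicates 1 and 2 the other way round. Libraries held 14901842 to 25154115 reads (median 17820524). Control 3 h replicate 3, 1 µM 3 h replicate 1 and 1 µM 48 h replicate 2 had Y-linked read sums of 0.105, 0.473 and 0.157 CPM, against at least 53.4 in the other libraries. Almost no RNA of male limbs was thus in these libraries, although limbs of both sexes shared bottles. The labelled tissue had its markers: 16 of 16 chondrocyte, 10 of 10 skeletal muscle and 8 of 8 tendon marker genes had reads over the 45 libraries. In control libraries at 3 h the summed levels of these lists, in the same order, were 5451 to 5912, 1035 to 1364 and 1991 to 2301 CPM.

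A synovial joint begins as the interzone, a band of flattened cells that forms across a cartilage rod where the bones will part. Interzone cells express Gdf5, WNT ligands made there hold back cartilage differentiation, and descendants of these cells give articular cartilage, ligament and synovium. In limb buds several of these genes also mark other cells, such as endothelium for Erg, irregular connective tissue for Osr1 and Osr2, and surface ectoderm for several WNT genes. In bulk RNA, fewer cells of a type and less RNA per cell cannot be told apart.

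The genes are protein-coding, and positions are those of the deposited tables in build mm10. Gdf5 (ENSMUSG00000038259) lies on chromosome 2 from 155941023 to 155945367, minus strand, and Gdf6 (ENSMUSG00000051279) on chromosome 4 from 9844372 to 9862345, plus strand. Wnt4 (ENSMUSG00000036856) lies on chromosome 4 from 137277489 to 137299726, and Wnt9a (ENSMUSG00000000126) on chromosome 11 from 59306928 to 59333552, both on the plus strand. Erg (ENSMUSG00000040732) lies on chromosome 16 from 95359169 to 95586593, minus strand, and Barx1 (ENSMUSG00000021381) on chromosome 13 from 48662998 to 48666507, plus strand. Osr1 (ENSMUSG00000048387) lies on chromosome 12 from 9570116 to 9581500, and Osr2 (ENSMUSG00000022330) on chromosome 15 from 35296098 to 35303305, both on the plus strand. Trps1 (ENSMUSG00000038679) lies on chromosome 15 from 50654752 to 50890463, and Prg4 (ENSMUSG00000006014) on chromosome 1 from 150449412 to 150466165, both on the minus strand. Exons overlap those of another gene in 3 cases, and the strand setting of the counting is not given in the sources used here. Gdf5 overlaps the opposite-strand Gm15557 (2 to 29 reads per library), Prg4 the opposite-strand Tpr (2942 to 4643 reads) and Trps1 Mir1907 (0 to 7 reads).

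The promoters of both WNT genes are shown because their estimates with 5 µM BPAF, given further on, lay on opposite sides of 0. Wnt9a was not called with 5 µM BPAF at any time, and no link to the promoter sequences was tested. RefSeq promoter windows in build GRCm38.p6 (mm10), 250 bases before to 50 after a start site, matched 4 of the 10 genes: Wnt4, Wnt9a, Erg and Barx1. These start sites need not be the gene starts given above. The Wnt4 window lies at chr4:137277385-137277684 and the Wnt9a window at chr11:59306680-59306979, both on the plus strand. The Wnt4 gene start given above, 137277489, lies in the part of its window before the start site. Capitals mark any match to the motifs named next, and the sequences run 5′ to 3′.
Wnt4: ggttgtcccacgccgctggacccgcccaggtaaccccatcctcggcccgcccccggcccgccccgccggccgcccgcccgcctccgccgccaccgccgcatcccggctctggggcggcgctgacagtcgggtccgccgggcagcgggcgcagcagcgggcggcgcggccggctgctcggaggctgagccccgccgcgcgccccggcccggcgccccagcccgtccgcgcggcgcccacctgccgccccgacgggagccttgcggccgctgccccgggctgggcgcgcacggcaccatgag
Wnt9a: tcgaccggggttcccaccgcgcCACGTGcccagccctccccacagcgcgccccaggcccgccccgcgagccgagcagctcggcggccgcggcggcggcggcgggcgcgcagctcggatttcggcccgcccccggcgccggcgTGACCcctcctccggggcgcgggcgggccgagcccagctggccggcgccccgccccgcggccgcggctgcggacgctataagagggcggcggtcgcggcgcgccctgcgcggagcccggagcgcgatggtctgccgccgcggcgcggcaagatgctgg
The windows were searched on both strands for the full estrogen response element (GGTCA and TGACC 3 bases apart), its core GGTCA, which is part of the full element, the TCF/LEF core CTTTGA and the E-box CACGTG. Of 32851 promoter windows of 300 bases, 0.07% held the full element, 40.48% its core, 7.15% the E-box and 5257 the TCF/LEF core. The Wnt4 window held none of these letters. In the Wnt9a window, an estrogen element core on the minus strand (TGACC as printed) begins at position -108 and an E-box at position -228, counted from the start site of the window. Of the windows not shown, the Erg windows that begin at 95530316 and 95459299 on chromosome 16 also held the core. The remaining Erg window and the Barx1 window held none of these letters. Both windows were rich in G and C, at 84.3% for Wnt4 with 51 CG pairs and 83.3% for Wnt9a with 58, against a median of 52.7% over all windows.

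Per kilobase of gene length, Osr1 was the most abundant of the 10 genes in control limbs at both 3 and 48 h. At 3 h, levels in control limbs were 50.4 ± 2.33 RPKM for Osr1, 39.9 ± 3.30 for Gdf5, 30.7 ± 1.65 for Erg, 14.3 ± 1.02 for Trps1 and 13.3 ± 1.01 for Osr2 (SD, n = 5), where RPKM is TMM-scaled CPM per kilobase. Wnt4 followed at 10.1 ± 1.45 RPKM, Gdf6 at 6.21 ± 0.722, Wnt9a at 5.46 ± 0.752, Barx1 at 4.85 ± 1.29 and Prg4 at 0.868 ± 0.157. In this order the libraries of Trps1 and Osr2, Osr2 and Wnt4, Gdf6 and Wnt9a, and Wnt9a and Barx1 overlapped, and the other neighbours did not. At 48 h, Osr1 stood at 41.4 ± 4.27 RPKM, Erg at 25.3 ± 1.36, Trps1 at 19.0 ± 2.54, Gdf5 at 17.6 ± 0.788 and Osr2 at 14.5 ± 2.41. Below these, Wnt4 stood at 10.7 ± 1.495 RPKM, Wnt9a at 7.86 ± 0.485, Barx1 at 7.81 ± 2.15, Gdf6 at 5.67 ± 0.380 and Prg4 at 1.28 ± 0.184. Neighbours that overlapped at 48 h were Trps1 and Gdf5, Gdf5 and Osr2, Osr2 and Wnt4, and Wnt9a and Barx1. Gdf5 came after Osr1 at 3 h, and after Osr1, Erg and Trps1 at 48 h. The counts behind the genes ranged from 44 to 164 reads per library for Prg4 and 95 to 252 for Barx1 to 2919 to 6138 for Trps1, and Prg4 and Barx1 had the fewest.

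How the joint genes behaved in control limbs over time sets the scale for the BPAF effects. From here on levels are TMM-scaled CPM, which put each count on the same library size, differences are log2 fold changes with their standard error (SE) from edgeR, and a gene counts as called where its p, adjusted by Benjamini and Hochberg over all genes tested, was under 0.05. In control limbs at 48 h against 3 h, Gdf5, Erg and Osr1 fell and Prg4, Wnt9a, Barx1 and Trps1 rose. That is 7 of 10 genes called, where 50.9% of all genes were (25.6% higher and 25.4% lower). At 24 h against 3 h, 4 of the 10 were called, 3 higher and 1 lower (37.8% of all genes, 19.1% higher and 18.7% lower). At 48 h against 24 h, 3 were called, all lower (16.3% of all genes, 9.71% higher and 6.57% lower). The median log2 fold change of the 10 genes was 0.10 at 48 h against 3 h, and that of all genes -0.01. The 3 comparisons share control libraries. Y-linked reads of control libraries at 24 h (177 to 321 CPM) all lay above those at 3 h (0.105 to 156 CPM). Between these times, the mix of sexes and time cannot be fully told apart. With the Y-linked read share as a covariate, edgeR called 4884 of all genes at 24 h against 3 h, and 6227 without it. Where the libraries of a group are said to lie above or below all those of another, that describes the values only. The share of all genes separated in this way was not counted in any comparison. The 10 genes and the lists below were chosen with earlier results of these data known. Their counts beside shares of all genes are therefore descriptions.

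Gdf5, the growth factor that marks the interzone, had 97.6, 92.0, 80.6, 92.0 and 101 CPM in control libraries at 3 h, 59.6, 69.6, 59.2, 83.0 and 73.1 CPM at 24 h, and 42.5, 39.2, 38.4, 42.0 and 41.6 CPM at 48 h. The 48 h libraries lay below all earlier ones, while 24 h replicate 4 reached into the 3 h range. Gdf5 fell by 1.18 ± 0.06 on the log2 scale at 48 h against 3 h (edgeR adjusted p = 6.7e-11), by 0.43 ± 0.09 at 24 h against 3 h and by 0.76 ± 0.09 at 48 h against 24 h (edgeR adjusted p = 6.16e-04 and 2.74e-05). Its relative Gdf6 averaged 21.9 ± 2.55 CPM at 3 h, 20.8 ± 3.05 at 24 h and 20.04 ± 1.34 at 48 h (SD, n = 5 each) and was not called. Its difference at 48 h against 3 h was -0.12, with a 95% interval of -0.31 to 0.07.

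Wnt9a rose early and Wnt4 was not called. Wnt9a, a ligand of canonical WNT signalling in the interzone, averaged 18.2 ± 2.504 CPM at 3 h, 24.3 ± 2.10 at 24 h and 26.2 ± 1.62 at 48 h (SD, n = 5 each). All of its 24 h and 48 h libraries lay above all 3 h libraries, with a difference of 0.53 ± 0.10 at 48 h against 3 h (edgeR adjusted p = 1.86e-04). Wnt4, a WNT ligand of interzone, perichondrium and ectoderm, averaged 42.5 ± 6.08, 43.7 ± 1.20 and 44.9 ± 6.27 CPM at the same times. Its difference at 48 h against 3 h was 0.09, with a 95% interval of -0.13 to 0.30.

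Among the transcription factors, Erg, an ETS factor of permanent articular cartilage and of endothelium, fell late. Erg averaged 107 ± 5.73 CPM at 3 h, 110.8 ± 10.4 at 24 h and 87.6 ± 4.71 at 48 h, and its 48 h libraries, from 82.0 to 95.1 CPM, lay below all others. The fall was 0.34 ± 0.07 at 48 h against 24 h (edgeR adjusted p = 0.0027). Beside it, summed counts of 13 endothelial marker genes in control libraries ranged from 492 to 549 CPM at 3 h, 335 to 390 CPM at 24 h and 366 to 409 CPM at 48 h. At 24 h against 3 h, 10 of the 13 were called lower and 0 higher (18.7% of all genes lower). At 48 h against 24 h, 1 was called lower and 1 higher (6.57% of all genes lower and 9.71% higher). At 48 h against 3 h, 12 were called lower and 0 higher (25.4% of all genes lower). Their part in the Erg levels was not tested. Osr1, a zinc finger factor of joint and connective tissue progenitors, fell by 0.28 ± 0.07 at 48 h against 3 h (edgeR adjusted p = 0.00223), with 77.3 to 96.0 CPM at 48 h and 98.5 to 109.5 CPM at 3 h. Its fall of 0.24 ± 0.07 at 48 h against 24 h (edgeR adjusted p = 0.0312) was lost without control 48 h replicate 1, 3 or 4 (edgeR adjusted p = 0.0643, 0.0878 and 0.0697) or control 24 h replicate 1, 4 or 5 (0.0584, 0.0636 and 0.0647). Osr2, its paralog, averaged 48.3 ± 3.67, 50.7 ± 3.12 and 52.4 ± 8.73 CPM at the 3 times and was not called. It was called at 48 h against 3 h without control 48 h replicate 1, the lowest library of its group (edgeR adjusted p = 0.0241).

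Barx1 and Trps1 went up. Barx1, a homeobox factor that restrains chondrogenesis at the joint, rose by 0.70 ± 0.19 at 48 h against 3 h (edgeR adjusted p = 0.00437). Its control libraries had 9.81, 16.2, 9.64, 8.63 and 10.4 CPM at 48 h and 5.73, 6.06, 6.21, 9.997 and 5.91 CPM at 3 h. A high library in each group made the ranges overlap. Without the high one at 3 h, replicate 4, Barx1 was also called at 24 h against 3 h (edgeR adjusted p = 0.0315). Trps1, a GATA-type repressor whose loss causes a human syndrome with joint abnormalities, averaged 191 ± 13.6 CPM at 3 h, 272 ± 31.4 at 24 h and 254 ± 34.0 at 48 h. It rose by 0.50 ± 0.07 at 24 h against 3 h (edgeR adjusted p = 2.87e-05), and all 24 h libraries lay above all 3 h libraries.

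Prg4, whose protein lubricates the mature joint surface, was scarce throughout and rose between 3 and 24 h. What the exon overlap with Tpr, given above, does to Prg4 counts was not tested. Control libraries had 3.25, 4.51, 2.93, 4.28 and 3.61 CPM at 3 h, 4.90, 7.54, 5.55, 6.21 and 5.89 CPM at 24 h, and 6.00, 6.29, 5.82, 4.85 and 4.46 CPM at 48 h. Every 24 h library lay above every 3 h library, and the lowest 48 h library fell within the 3 h range. The rise was 0.69 ± 0.17 at 24 h and 0.57 ± 0.18 at 48 h, each against 3 h (edgeR adjusted p = 0.00358 and 0.0117). With the Y-linked read share as a covariate neither was called (edgeR adjusted p = 0.062 and 0.0723).

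**Figure D1:**
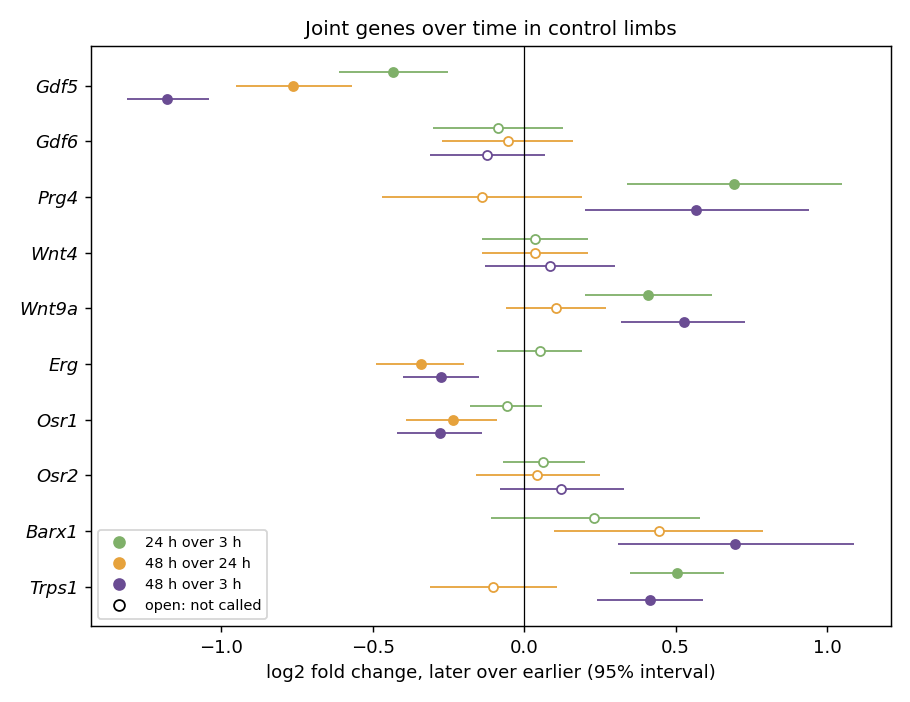
Log2 fold change of each joint gene in control limbs between times, later over earlier, with 95% intervals and n = 5 libraries per time. Points are filled where called. Gdf5 lies farthest to the left at -1.18 for 48 h over 3 h, and Wnt9a, Trps1 and Prg4 lie to the right at 24 h over 3 h.

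The next comparisons asked what 5 µM BPAF did to the joint genes. At 48 h, Gdf6 was lower and Wnt4 higher with 5 µM BPAF than in controls, and the other 8 genes were not called. That is 2 of 10, where 7.16% of all genes were called (2.74% higher and 4.42% lower). At 24 h none of the 10 was called by edgeR or limma-voom and 1 by DESeq2, with 4 at an unadjusted p under 0.05, where edgeR called 1.57% of all genes (258 genes, and 655 with replicate numbers as a block, since same-numbered libraries varied together at that time). At 3 h none was called by edgeR or limma-voom and 1 by DESeq2, with 3 at an unadjusted p under 0.05, where edgeR called 0.18% of all genes. Median log2 fold changes of the 10 genes were -0.05 at 3 h, -0.14 at 24 h and -0.10 at 48 h, against 0.00 for all genes at each time. Estimates ran from -0.28 to 0.19 at 3 h, from -0.26 to 0.41 at 24 h and from -0.42 to 0.31 at 48 h.

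**Figure D2:**
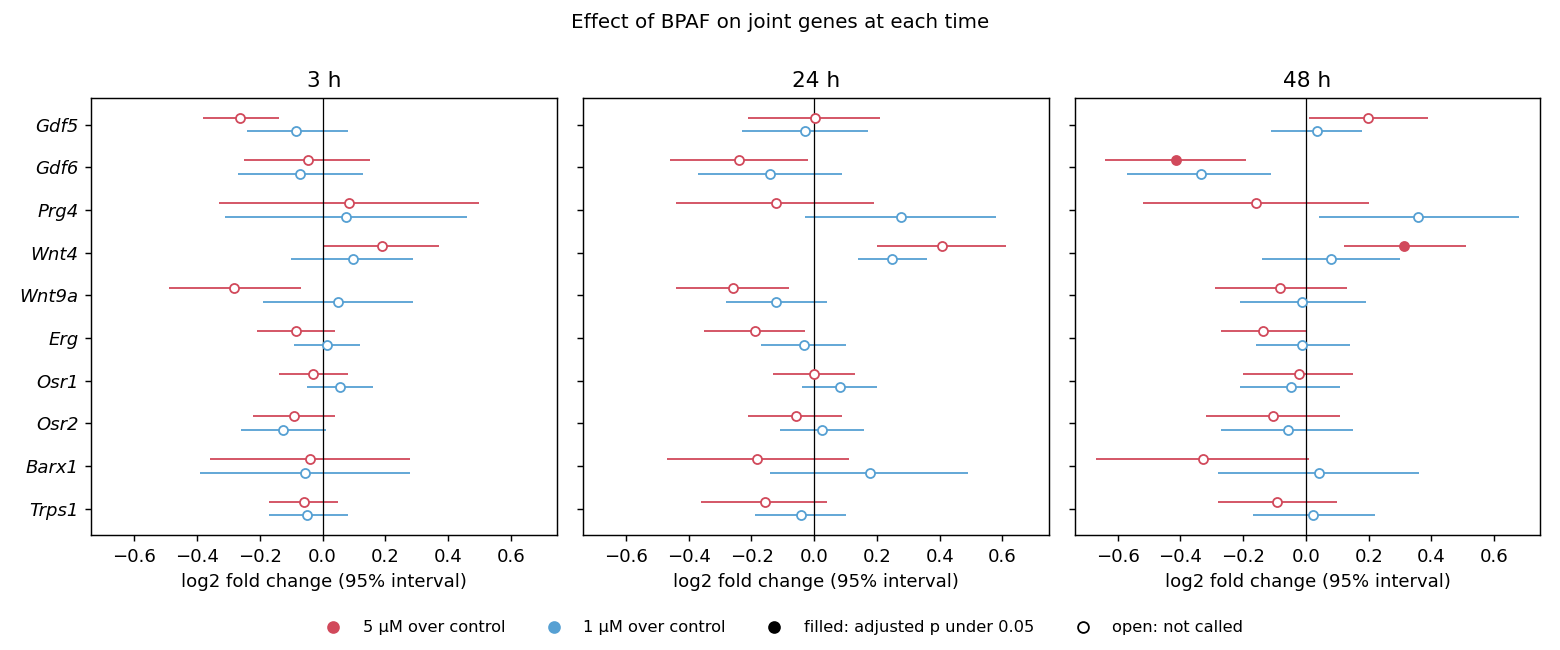
Log2 fold change of each joint gene with 5 µM (red) and 1 µM (blue) BPAF over control at 3, 24 and 48 h, with 95% intervals and n = 5 libraries per group. Filled points were called, which holds only for Gdf6 (-0.415) and Wnt4 (0.31) with 5 µM at 48 h.

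The Gdf5 effect of 5 µM BPAF differed between 3 and 48 h. At 3 h Gdf5 had 78.2, 74.3, 72.1, 78.8 and 81.0 CPM with 5 µM BPAF, against 97.6, 92.0, 80.6, 92.0 and 101 CPM in control libraries. Only the highest treated library reached above the lowest control, control replicate 3. The difference was -0.26 ± 0.06 (edgeR adjusted p = 0.0746) and was not called. Its adjusted p lay between 0.00486 and 0.505 over the edgeR, DESeq2 and limma-voom settings that kept all libraries. Limma-voom, RLE size factors and the fit of all 45 libraries did not call the difference either. DESeq2 called it (adjusted p = 0.00486), as did edgeR without the low-count filter (adjusted p = 0.0253), without control 3 h replicate 3 (0.0239) and with Y-linked reads as a covariate (0.0408). The authors' deposited table lists Gdf5 at 3 h with a log2 fold change of -0.265 and an adjusted p of 0.00497.

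At 24 h Gdf5 averaged 68.6 ± 7.28 CPM with 5 µM BPAF and 68.9 ± 9.96 CPM in control libraries (SD, n = 5 each), a difference of 0.00 with a 95% interval of -0.21 to 0.21. At 48 h it had 43.0, 48.8, 44.8, 41.6 and 59.3 CPM with 5 µM BPAF, against 42.5, 39.2, 38.4, 42.0 and 41.6 CPM in control libraries. Of the treated libraries 4 lay above all controls, replicate 5 farthest, and the difference of 0.20 ± 0.09 was not called (edgeR adjusted p = 0.231). The 5 µM effect at 48 h exceeded that at 3 h by 0.47 ± 0.11 on the log2 scale (edgeR interaction test over 20 libraries, adjusted p = 0.00979), where 2.8% of all genes were called, 0.757% in the positive direction. Gdf5 was the 1 gene of the 10 called in that test. Its difference of effects stayed called under all 26 alternatives run, at 0.38 to 0.52 (adjusted p from 0.00149 to 0.0269). For 24 h against 3 h and 48 h against 24 h, the differences of the Gdf5 effect were 0.28 ± 0.12 and 0.21 ± 0.14 and were not called (edgeR adjusted p = 0.544 and 1). In these tests edgeR, DESeq2 and limma-voom called none of the 10 genes, with 1 and 0 at an unadjusted p under 0.05, where edgeR called 0.336% and 0.0693% of all genes.

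Gdf6 was lower at 48 h. It had 12.5, 15.01, 14.2, 16.5 and 18.2 CPM with 5 µM BPAF, against 18.0, 19.7, 20.6, 20.3 and 21.6 CPM in control libraries. All treated libraries but replicate 5 lay below all controls. Gdf6 fell by 0.415 ± 0.10 on the log2 scale, with a 95% interval of -0.64 to -0.19 (edgeR adjusted p = 0.02). The authors' deposited table lists it with an adjusted p of 0.00624. The call was lost without 5 µM 48 h replicate 1 or 3 (edgeR adjusted p = 0.0612 and 0.0563) or control 48 h replicate 5 (0.0596). At 24 h Gdf6 averaged 17.5 ± 1.04 CPM with 5 µM BPAF and 20.8 ± 3.05 CPM in control libraries, a difference of -0.24 ± 0.10 that was not called (edgeR adjusted p = 0.37). At 3 h it averaged 21.2 ± 2.54 CPM with 5 µM BPAF and 21.9 ± 2.55 CPM in controls, a difference of -0.05 with a 95% interval of -0.25 to 0.15. The Gdf6 effect at 48 h minus that at 3 h was -0.36 ± 0.14 on the log2 scale, which was not called (edgeR adjusted p = 0.245).

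Wnt4 was higher with 5 µM BPAF at 48 h and near the threshold at 24 h. At 48 h it had 60.7, 56.02, 51.5, 52.5 and 62.3 CPM with 5 µM BPAF, against 36.3, 53.3, 42.1, 47.0 and 45.9 CPM in control libraries. Of the treated libraries 3 lay above all controls, and control replicate 2 lay inside the treated range. Wnt4 rose by 0.31 ± 0.09 on the log2 scale, with a 95% interval of 0.12 to 0.51 (edgeR adjusted p = 0.0477). The authors' deposited table lists an adjusted p of 0.0146. The call was lost without 5 µM 48 h replicate 1, 2 or 5 (edgeR adjusted p = 0.106, 0.0731 and 0.112) or control 48 h replicate 1, 3, 4 or 5 (0.0972, 0.0912, 0.0626 and 0.0802).

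At 24 h Wnt4 had 63.5, 54.5, 54.2, 44.95 and 70.8 CPM with 5 µM BPAF, against 42.1, 45.3, 43.7, 43.1 and 44.3 CPM in control libraries. Of the treated libraries 4 lay above all controls, and their spread was far wider than that of the controls (SD 9.87 CPM with 5 µM BPAF and 1.20 CPM in controls). The difference of 0.41 ± 0.10 was not called (edgeR adjusted p = 0.0508). It was called with the replicate number as a block, where numbers paired the libraries (edgeR adjusted p = 0.00914), and by DESeq2 (adjusted p = 0.00567). RLE size factors, no low-count filter and a fit of all 45 libraries also gave a call (edgeR adjusted p = 0.0451, 0.0223 and 0.0153), and limma-voom and the Y-linked covariate did not. Leaving out 5 µM 24 h replicate 4 or 5 gave a call as well (edgeR adjusted p = 0.0117 and 0.0381). The library with the highest Wnt4, 5 µM 24 h replicate 5, had the fewest Y-linked reads of the 24 h libraries, at 53.4 CPM, and a haemoglobin share of 0.253% of reads. Control 24 h replicate 5 stood next in haemoglobin at 0.251%, and without both libraries the Wnt4 difference was 0.33 (edgeR adjusted p = 0.0493). In the authors' deposited table the adjusted p at 24 h is 0.00551. At 3 h Wnt4 averaged 48.2 ± 5.71 CPM with 5 µM BPAF and 42.5 ± 6.08 CPM in control libraries, a difference of 0.19 ± 0.09 that was not called (edgeR adjusted p = 0.575).

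Epidermis expresses Wnt4 too, so its markers are given beside it. The summed level of 8 epidermal genes at 24 h ranged from 153 to 462 CPM with 5 µM BPAF and from 94.9 to 466 CPM in control libraries, with none called. At 48 h it ranged from 213 to 558 CPM with 5 µM BPAF and from 282 to 523 CPM in controls, and Krt15 and Epcam were lower at -0.99 ± 0.23 and -0.49 ± 0.13 (edgeR adjusted p = 0.0116 and 0.028). Their part in the Wnt4 difference was not tested.

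Wnt9a lay below controls at 3 and 24 h without being called. At 24 h it had 20.8, 18.7, 21.8, 18.9 and 20.6 CPM with 5 µM BPAF, against 22.0, 27.1, 25.5, 22.5 and 24.3 CPM in control libraries. All treated libraries lay below all controls, but the difference of -0.26 ± 0.09 was not called (edgeR adjusted p = 0.188). The share of all genes separated in this way was not counted. At 3 h it had 15.9, 13.1, 14.9, 15.6 and 15 CPM with 5 µM BPAF, against 20.2, 16.2, 21.4, 17.5 and 15.6 CPM in control libraries. The ranges overlapped at the lowest control, and the difference was -0.28 ± 0.10 (edgeR adjusted p = 0.411). At 48 h Wnt9a averaged 25.1 ± 3.98 CPM with 5 µM BPAF and 26.2 ± 1.62 CPM in control libraries, a difference of -0.08 with a 95% interval of -0.29 to 0.13. No alternative called Wnt9a at 3, 24 or 48 h of 5 µM BPAF.

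**Figure D3:**
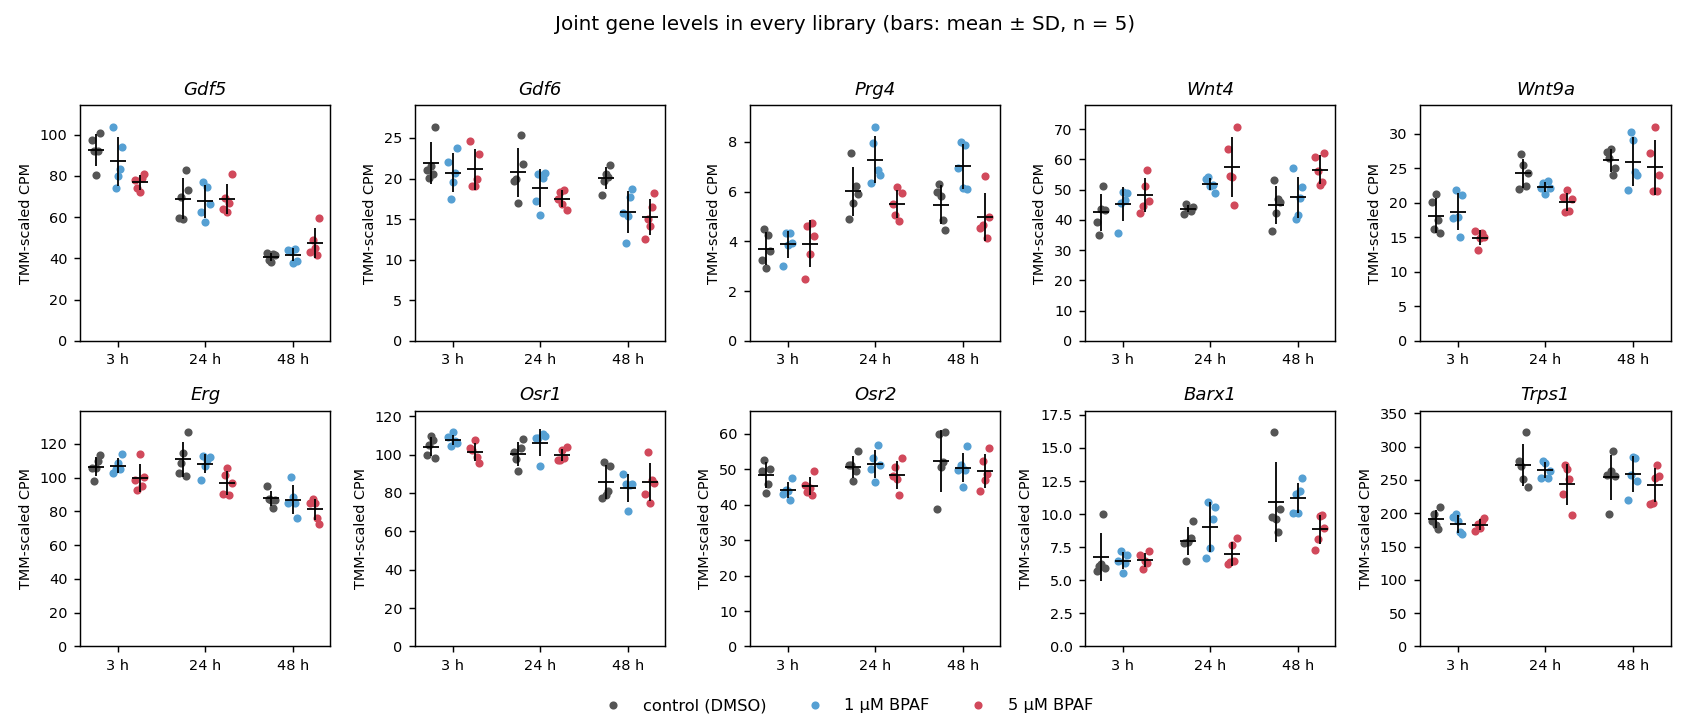
TMM-scaled CPM of each joint gene in all 45 libraries, by time and, within a time, by dose from control to 1 and 5 µM BPAF. Each point is a library and bars show the mean ± SD (n = 5). With 5 µM BPAF, 4 of 5 libraries of Gdf6 at 48 h lie below all controls, and 4 of 5 libraries of Wnt4 at 24 h lie above all controls.

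None of the 5 transcription factor genes was called with 5 µM BPAF at any time under edgeR, DESeq2 or limma-voom. Erg averaged 100 ± 8.29 CPM with 5 µM BPAF against 107 ± 5.73 CPM in controls at 3 h. The Erg mean at 24 h was 96.8 ± 7.10 CPM with 5 µM BPAF against 110.8 ± 10.4 CPM in controls, and at 48 h 81.1 ± 6.44 CPM with 5 µM BPAF against 87.6 ± 4.71 CPM in controls. The Erg differences were -0.09 ± 0.06, -0.19 ± 0.07 and -0.14 ± 0.06 (edgeR adjusted p = 0.723, 0.308 and 0.256). Beside Erg, the summed level of 13 endothelial genes ranged from 287 to 323 CPM with 5 µM BPAF and from 335 to 390 CPM in controls at 24 h. At 48 h it ranged from 284 to 354 CPM with 5 µM BPAF and from 366 to 409 CPM in controls, with no overlap at either time. At 48 h 3 of these 13 genes were called, all lower, where 4.42% of all genes were called lower. They were Cdh5 at -0.51 ± 0.08, Pecam1 at -0.38 ± 0.10 and Esam at -0.34 ± 0.10 (edgeR adjusted p = 7.35e-04, 0.0199 and 0.0417). The part of endothelial cells in the Erg difference was not tested.

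Osr1 means with 5 µM BPAF lay within 1 SD of their controls. Osr1 averaged 102 ± 4.68 CPM with 5 µM BPAF against 104 ± 4.81 CPM in controls at 3 h. The Osr1 mean at 24 h was 99.8 ± 3.13 CPM with 5 µM BPAF against 100.4 ± 6.32 CPM in controls, and at 48 h 85.6 ± 9.96 CPM with 5 µM BPAF against 85.5 ± 8.82 CPM in controls. Its 95% intervals were -0.14 to 0.08, -0.13 to 0.13 and -0.20 to 0.15, among the narrowest of the set. Osr2 gave -0.09 ± 0.06 at 3 h, -0.06 ± 0.07 at 24 h and -0.10 ± 0.10 at 48 h. Trps1 gave -0.06 ± 0.05, -0.16 ± 0.09 and -0.09 ± 0.09 at the same times, and its lowest treated library at 24 h, replicate 5 at 197 CPM, was the library highest in Wnt4.

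Barx1 at 48 h had 7.32, 8.14, 9.83, 9.94 and 8.98 CPM with 5 µM BPAF, against 9.81, 16.2, 9.64, 8.63 and 10.4 CPM in control libraries. The ranges overlapped, control replicate 2 stood apart, and the difference of -0.33 ± 0.16 was not called (edgeR adjusted p = 0.281). At 24 h the Barx1 difference was -0.18 ± 0.14 and at 3 h -0.04 ± 0.15, and without control 3 h replicate 4 the 3 h value turned to 0.13. Prg4 averaged 3.91 ± 0.933 CPM with 5 µM BPAF against 3.71 ± 0.670 CPM in controls at 3 h. At 24 h it averaged 5.50 ± 0.570 CPM with 5 µM BPAF against 6.02 ± 0.982 CPM in controls, and at 48 h 5.00 ± 0.967 CPM with 5 µM BPAF against 5.48 ± 0.787 CPM in controls. Its 95% intervals of -0.33 to 0.50, -0.44 to 0.19 and -0.52 to 0.20 leave room for differences in either direction.

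At 1 µM BPAF none of the 10 genes was called at any time by edgeR, DESeq2 or limma-voom, with 0, 1 and 2 of them at an unadjusted p under 0.05 at 3, 24 and 48 h. Of all genes edgeR called 0% at 3 h, 0.00608% (1 gene, and 2 with the replicate block) at 24 h and 0% at 48 h. At an unadjusted p under 0.05 there were 424 genes at 3 h and 621 at 48 h, and at 48 h DESeq2 called 4 and limma-voom 0. Median log2 fold changes of the 10 genes were -0.02, 0.00 and 0.00, and estimates ran from -0.13 to 0.10 at 3 h, from -0.14 to 0.28 at 24 h and from -0.34 to 0.36 at 48 h. These comparisons share their control libraries with those of 5 µM BPAF, so values are given side by side.

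Wnt4 at 24 h had 53.5, 54.3, 51.3, 51.5 and 48.9 CPM with 1 µM BPAF, against 42.1, 45.3, 43.7, 43.1 and 44.3 CPM in control libraries. All 1 µM libraries lay above all controls, by 0.25 ± 0.05 on the log2 scale (95% interval 0.14 to 0.36), against 0.41 ± 0.10 at 5 µM. The edgeR adjusted p was 1, and it lay between 0.166 and 1 over the alternatives other than leaving out libraries. At 48 h the Wnt4 difference was 0.08 (95% interval -0.14 to 0.30) at 1 µM. Gdf6 at 48 h had 15.7, 12.03, 15.4, 17.7 and 18.7 CPM with 1 µM BPAF, against 18.0, 19.7, 20.6, 20.3 and 21.6 CPM in control libraries. Of the 1 µM libraries 4 lay below all controls, and the difference was -0.34 ± 0.11 (edgeR adjusted p = 0.998), against -0.415 ± 0.10 at 5 µM.

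For Prg4 the estimates at 24 and 48 h lay below 0 at 5 µM and above 0 at 1 µM. With 1 µM BPAF at 48 h it had 6.95, 8.01, 6.16, 7.86 and 6.10 CPM, against 6.00, 6.29, 5.82, 4.85 and 4.46 CPM in control libraries, a difference of 0.36 ± 0.15 (edgeR adjusted p = 0.998). The 1 µM libraries overlapped the controls at their low end. At 24 h the Prg4 difference at 1 µM was 0.28 (95% interval -0.03 to 0.58). Gdf5 with 1 µM BPAF stood at -0.08 (95% interval -0.24 to 0.08) at 3 h, -0.03 (-0.23 to 0.17) at 24 h and 0.03 (-0.11 to 0.18) at 48 h.

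Set directly against 1 µM, 5 µM BPAF gave no call among the 10 genes by edgeR, DESeq2 or limma-voom, with 2, 3 and 3 at an unadjusted p under 0.05 at 3, 24 and 48 h. Of all genes edgeR called 0.036% (6 genes, and 50 with the replicate block) at 3 h, 1.19% at 24 h and 5.96% at 48 h. Prg4 at 48 h had 4.56, 4.68, 6.64, 4.13 and 4.97 CPM at 5 µM and 6.95, 8.01, 6.16, 7.86 and 6.10 CPM at 1 µM, a difference of -0.51 ± 0.16 (edgeR adjusted p = 0.0771). It was called without 5 µM 48 h replicate 3, the only 5 µM library inside the 1 µM range (edgeR adjusted p = 0.026), and in the fit of all 45 libraries (0.0409). At 24 h all 5 µM libraries of Prg4, from 4.82 to 6.18 CPM, lay below all 1 µM libraries, from 6.37 to 8.61 CPM, at -0.40 ± 0.14 (edgeR adjusted p = 0.26). Barx1 at 48 h lay between 7.32 and 9.94 CPM at 5 µM and between 10.1 and 12.7 CPM at 1 µM, with no overlap, at -0.37 ± 0.12 (edgeR adjusted p = 0.0985). Wnt4 at 48 h was 0.24 ± 0.09 higher at 5 µM than at 1 µM (edgeR adjusted p = 0.158), and it was called without 1 µM 48 h replicate 1 (0.0323). For Gdf6 at 48 h the doses differed by -0.08, with a 95% interval of -0.34 to 0.19.

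Other genes of the joint were followed as lists, which were chosen with earlier results of these data known. Shares of all genes stand beside their counts as a description only. Of 21 other joint genes, 2 rose and 1 fell with 5 µM BPAF at 48 h, where 2.74% of all genes were higher and 4.42% lower, with a median of -0.01 against 0.00 for all genes. Wnt5b, a WNT ligand of the perichondrium, rose by 0.37 ± 0.07 and the secreted WNT modulator Dkk3 by 0.24 ± 0.06 (edgeR adjusted p = 0.00331 and 0.02). Dcx, a microtubule protein found in interzone cells, fell by 0.81 ± 0.08 (edgeR adjusted p = 5.63e-06). Dcx also differed in its 5 µM effect between 48 and 3 h, by -0.79 ± 0.10 (edgeR adjusted p = 1.97e-05). In control limbs Dcx rose by 1.43 ± 0.07 at 48 h against 3 h (edgeR adjusted p = 2.09e-11), where 13 of the 21 rose and 5 fell, beside 25.6% of all genes higher and 25.4% lower.

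Articular and synovial genes showed 2 higher and 1 lower of 16 with 5 µM BPAF at 48 h, with a median of 0.08. Of all genes 2.74% were called higher and 4.42% lower. Vcam1, an adhesion molecule, rose by 0.34 ± 0.06 and the transcription factor Nfatc1, known from articular cartilage progenitors, by 0.31 ± 0.07 (edgeR adjusted p = 7.76e-04 and 0.0136). Dpt, the matrix protein dermatopontin, fell by 0.68 ± 0.14 (edgeR adjusted p = 0.00444). In control limbs 14 of these 16 rose at 48 h against 3 h and 2 fell, where 50.9% of all genes were called. The list's median was 1.28 and that of all genes -0.01. Among those that rose, the cartilage intermediate layer gene Cilp stood at 3.23 ± 0.18, the surface protein Cd55 of synovial lining cells at 2.15 ± 0.10 and the matrix gene Tnxb at 2.84 ± 0.19 (edgeR adjusted p = 8.06e-11, 5.21e-12 and 1.1e-09). Prg4, with 0.57 on the same scale, lay below the median of that list.

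Genes that carry or answer the GDF and BMP signal gave 1 or 2 calls at each time with 5 µM BPAF. Beside them, 0.18% of all genes were called at 3 h, 1.57% at 24 h and 7.16% at 48 h. Of the 23 genes of this list, Nog fell and Id1 rose with 5 µM BPAF at 3 h. Nog, which encodes the BMP and GDF5 antagonist noggin, stood at -0.60 ± 0.07, and Id1, a direct BMP target, at 0.31 ± 0.05 (edgeR adjusted p = 2.15e-04 and 0.0141). At 24 h 1 rose, the BMP target Id2 at 0.33 ± 0.07, and at 48 h 2 rose, Id2 at 0.38 ± 0.06 and the decoy receptor Bambi at 0.32 ± 0.08 (edgeR adjusted p = 0.0207, 3.9e-04 and 0.0179). Medians of this list were 0.03 at each time. In control limbs at 48 h against 3 h, 4 of the 23 rose and 10 fell, where 50.9% of all genes were called. Of 11 measured canonical WNT feedback targets 1 was called at 48 h, the WNT inhibitor Dkk1, which fell by 1.01 ± 0.25 (edgeR adjusted p = 0.0199), while the list's median was -0.04. Of 12 of these targets 6 fell and 1 rose in control limbs at 48 h against 3 h, where 25.4% of all genes were lower and 25.6% higher. The 6 included Axin2 at -1.17 ± 0.07 and Lef1 at -1.38 ± 0.09 (edgeR adjusted p = 3.99e-10 and 5.93e-10).

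Markers of other cells moved in the same libraries, and their lists were also chosen with earlier results of these data known. With 5 µM BPAF at 48 h, 9 of 10 skeletal muscle genes and 6 of 8 macrophage genes were called lower, where 4.42% of all genes were. Beside the same share, 2 of 8 tendon genes and 1 each of 16 chondrocyte and 9 measured osteoblast genes were called lower. None of these lists had a gene called higher against control, and the median of the chondrocyte list was 0.08. Against 1 µM at 48 h, 4 of 16 chondrocyte genes were called higher with 5 µM BPAF and 0 lower. Of all genes 5.96% were called there. The summed muscle level ranged from 1915 to 2284 CPM with 5 µM BPAF and from 3209 to 5152 CPM in control libraries, and that of macrophage genes from 144 to 173 CPM with 5 µM BPAF and from 219 to 289 CPM in controls. The summed chondrocyte level ranged from 22820 to 27460 CPM with 5 µM BPAF and from 19370 to 23860 CPM in control libraries. Of 5 measured muscle connective tissue genes, which mark tissue where Osr1 and Osr2 are expressed, none was called by edgeR, with a median of -0.21. The part of these cell types in the joint gene values was not tested.

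Across the 45 libraries, with the mean of each time removed, the 10 genes did not vary as a block. The following Pearson correlations are descriptions, and libraries of a group share their dose and may share culture or preparation. The highest r between members was 0.52, for Wnt9a and Erg, followed by 0.48 for Osr1 and Osr2 and 0.43 for Gdf6 and Osr2. The lowest was -0.55, for Wnt4 and Trps1, and Wnt4 also stood at -0.34 with Erg and -0.32 with Wnt9a. Gdf5 and Gdf6 had an r of 0.25.

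**Figure D4:**
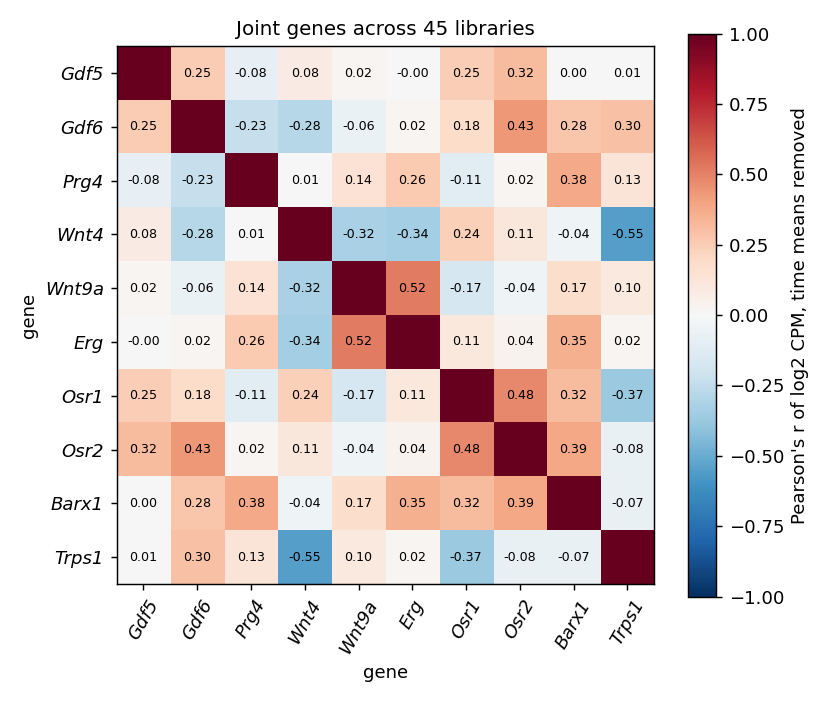
Pearson's r between joint genes over 45 libraries, from log2 CPM with the mean of each time removed. Wnt9a and Erg have the highest value (0.52) and Wnt4 and Trps1 the lowest (-0.55).

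Among 13756 genes with a mean of at least 2 CPM, the named genes nearest to each joint gene by the same measure were mostly not joint genes. Predicted, Riken, pseudogene, mitochondrial and similar symbols were left out of the neighbours. Gdf5 was nearest to Sfrp2, a secreted WNT inhibitor of the joint, Maged1 and the limb patterning gene Hoxd12 (r = 0.67, 0.67 and 0.66). Gdf6 was nearest to Selenop, Apoe and Gas1 (0.65, 0.64 and 0.64), and Wnt4 to the transcription factor gene Atoh8, Gpr153 and Hdgf (0.73, 0.71 and 0.71). For Wnt9a they were Gem, H3f3b and Tnfaip6 (0.69, 0.64 and 0.63), and for Erg Lsp1, Rnf145 and Calm2 (0.65, 0.64 and 0.64). Osr1 had Pbx2, Ldb1 and Zfp579 (0.65, 0.64 and 0.64), and Osr2 had Dbn1, Dpf2 and H2afv (0.67, 0.67 and 0.66). The nearest to Barx1 were Sept9, Psmc3 and Cnn3 (0.72, 0.68 and 0.67). Trps1 had the closest neighbours of the set, the chromatin gene Kat6a, Cnst and the cohesin gene Rad21 (0.84, 0.83 and 0.80). Prg4 was nearest to the cholesterol synthesis gene Nsdhl, Cab39l and Nexn (0.70, 0.59 and 0.57).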

How the data were processed

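The authors' 9 deposited tables, 1 for each compared pair of groups, hold raw counts of reads per gene in 10 libraries, per the file headers. Normalized signal and FPKM columns, also deposited, were scaled per table and entered no test here. The deposited log2 fold changes and p-values are named as the authors' where printed. Per the submitters' processing notes, the tools included CASAVA 1.8, STAR 2.5, HTSeq 0.6.1 and DESeq2, with build mm10. Their roles and settings are not given in the sources used here.

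Counts were joined by gene identifier, and a gene absent from a table was read as 0 (11.7% of gene and library pairs). Each of 12 pairwise comparisons (10 libraries) and 3 interaction tests (20 libraries) was fitted over all genes in edgeR 4.0.16 (R 4.3.3), with TMM scaling, filterByExpr (minimum count 10, total 15), the quasi-likelihood F-test and Benjamini-Hochberg adjustment. Checks on simulated counts, run for some of these tests with independent libraries, recovered the median fold changes put in. The changes put in were larger than the BPAF effects against control on the 10 genes, and smaller ones were not simulated. Alternatives were DESeq2 1.42.0, limma-voom (limma 3.58.1), RLE size factors, no filter, the replicate number as a block, the Y-linked read share as a covariate, all 45 libraries in 1 fit, and each library left out. Replicate numbers come from the titles. Numbers were taken to pair libraries where all 5 same-numbered pairs correlated above 0.1 in their deviations from the group means. This held for 5 µM against control at 24 h (r from 0.14 to 0.51), 1 µM against control at 24 h (0.11 to 0.37) and 5 against 1 µM at 3 h (0.11 to 0.39).

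The text names all 10 genes in each comparison and up to 3 called genes of each of 12 lists with the smallest p. It also names the 3 nearest genes by correlation (log2 of CPM plus 0.1), after predicted and similar symbols were left out. The members and lists were chosen with earlier results of these data known. Positions of the 10 genes were the same in GENCODE mouse release M21.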

Additional observations from a re-analysis of the deposited data

Results flagged for a closer look

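Among 90 groups of 5 libraries, 10 genes in 9 groups, 5 held a library far from the others by Dixon's test at 95%, where chance gives about 1 in 20. Gdf6 in control 3 h replicate 5 was the highest at 26.4 CPM, with the next library at 21.5 CPM. Wnt4 in 1 µM 3 h replicate 1 was the lowest at 35.6 CPM, with the next at 45.7 CPM, and that library is among those with almost no Y-linked reads. Osr1 in 1 µM 24 h replicate 3 was the lowest at 93.99 CPM, with the next at 108 CPM. Barx1 stood out in control 3 h replicate 4 at 9.997 CPM, with the next at 6.21 CPM, and in control 48 h replicate 2 at 16.2 CPM, with the next at 10.4 CPM.

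The 5 µM effect on Gdf5 differed between 48 and 3 h by 0.474 on the log2 scale in the interaction test described above (edgeR adjusted p = 0.00979). At 48 h 4 of 5 treated libraries lay above all controls, and at 3 h 4 of 5 lay below all controls.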

How the results depend on the processing

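Of 2850 single-gene values recomputed under alternatives, 2809 kept their side of the threshold and their direction within 1 SE, 18 lost a call, 20 gained one and 3 changed sign. A further 146 values of genes never called, smaller than their own SE, changed sign while moving by less than 1 SE and are counted among the 2809. The sign changes were Barx1 at 3 h without control 3 h replicate 4, at 0.13 for 5 µM and 0.12 for 1 µM against control, and Gdf5 at 24 h with 5 µM under the Y-linked covariate, at -0.123. The cause of these and the following changes was not tested.

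Counts of called genes moved by over 1.5 times as follows. For 5 µM against control at 3 h the count was 30, and 115 by DESeq2, 79 without the low-count filter and 62 with the replicate block. At 24 h it was 258, and 510 by DESeq2, 655 with the replicate block, 434 with the Y-linked covariate, 587 in the fit of all 45 libraries and 514 without both libraries highest in haemoglobin, a setting chosen after seeing the data. For 1 µM against control at 24 h it was 1, and 2 by DESeq2, 3 without the filter and 2 with the replicate block, and at 48 h it was 0, and 4 by DESeq2 and 1 without the filter. For 5 against 1 µM at 3 h it was 6, and 40 by DESeq2, 25 without the filter, 10 by limma-voom, 50 with the replicate block and 12 in the fit of all libraries. At 24 h it was 196, and 344 by DESeq2, 319 with the replicate block, 329 with the covariate and 348 in the fit of all libraries, and at 48 h 974, and 1618 with a block by library code. For the differences of the 5 µM effect, the count for 24 h minus 3 h was 59, and 149 by DESeq2 and 31 with the covariate, and for 48 h minus 24 h it was 12, and 42 by DESeq2, 27 without the filter, 7 by limma-voom and 28 with the replicate block.

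Among the 10 genes, 5 µM against control at 3 h gave 1 call in place of 0 by DESeq2, without the filter, with the replicate block (Gdf5, edgeR adjusted p = 0.0208) and with the covariate. At 24 h it gave 1 call in place of 0 by DESeq2, with RLE factors, without the filter, with the replicate block, in the fit of all libraries and without both libraries highest in haemoglobin. For 5 against 1 µM at 48 h there was 1 call in place of 0 with the replicate block (Wnt4, edgeR adjusted p = 0.0258) and in the fit of all libraries (Prg4). Barx1 was called at 48 h against 24 h in control limbs in the fit of all libraries (edgeR adjusted p = 0.0263). The replicate block changed no other call of the 10 genes. Outside the comparisons listed with the processing, replicate numbers were not taken to pair libraries, with r between -0.15 and 0.37. Even so, 4 of 5 libraries correlated best with their own number, and 4 of 5 pairs lay over 0.1, for 5 µM against control at 48 h and for 5 against 1 µM at 24 and at 48 h, a hint from the data and not from the design. In the other comparisons 1 to 3 of 5 libraries correlated best with their own number.

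Leaving out each library in turn, counts ranged from 15 to 45 for 5 µM against control at 3 h and from 109 to 498 at 24 h, from 0 to 1 for 1 µM against control at 3 h, and from 1 to 9 and 95 to 553 for 5 against 1 µM at 3 and 24 h. They ranged from 30 to 109 for the effect at 24 h minus 3 h and from 2 to 17 for 48 h minus 24 h. Calls among the 10 genes ranged from 0 to 1 for 5 µM against control at 3 h and at 24 h, from 0 to 2 at 48 h, and from 0 to 1 for 5 against 1 µM at 48 h. The Barx1 values ranged from -0.10 to 0.13 for 5 µM and from -0.11 to 0.12 for 1 µM against control at 3 h. Prg4 had 44 to 164 reads per library, and counting error is largest for it among the 10 genes.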
